A study of Drosophila melanogaster with 2 samples.

Results

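The ecdysone cascade and nuclear receptor genes are 10 genes that carry or answer the steroid hormone signal of insects, and they were located here among the binding sites of extra macrochaetae (emc) in fly embryos. The 10 were EcR, usp, br, Eip75B, Eip78C, Hr4, Hr78, Hr38, Hr39 and ftz-f1, out of 13945 protein-coding genes on the 6 chromosome arms. They were listed by name as a pathway, with Hr4 chosen by the number of strong peaks measured in it, so the count at Hr4 is a description and carries no test. Each gene was taken with its body and 10 kb on each side, and every peak whose summit fell in that window was assigned to it.

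The binding data come from chromatin immunoprecipitation and sequencing with an antibody against GFP in whole Drosophila melanogaster embryos aged 0 to 24 h, of pooled sex, from a transgenic line in which emc carries eGFP at its C-terminal end. There was 1 group of 2 biological replicates, numbered 1 and 3, and no other genotype, treatment or stage, so binding could be compared only between replicates and between places in the genome. The collection spans all of embryogenesis and all tissues, so a peak may come from a few cells or from many. The emc protein is a helix-loop-helix factor without the basic region that touches DNA. How it comes to a site is not seen in these data.

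Ecdysone acts through a pair of nuclear receptors, EcR and its partner usp. The bound receptor switches on a small set of early genes, among them br and Eip75B, whose products then regulate later genes, and further nuclear receptors such as Hr4 and ftz-f1 time the steps between one hormone pulse and the next. The cascade is best known from the onset of metamorphosis, and a pulse of ecdysone in mid-embryogenesis also drives morphogenesis of the embryo.

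The authors deposited a signal value for each peak, on the scale of their peak caller, and read depth is not given in the files. The strongest peaks are those of the list thresholded on the irreproducible discovery rate (IDR). It held 1865 peaks with signals of 62.7 to 1207.2, and these are the 1865 pooled peaks of highest signal. As a cut on pooled signal, the list also holds peaks that differ between the replicates. The pooled relaxed list held 29400 peaks down to a signal of 18.8, and each replicate list held 30000. The 10 windows held 13 IDR peaks, 217 pooled peaks, 187 peaks of replicate 1 and 231 of replicate 3. A pooled peak that overlapped no IDR peak is called weaker below, and the windows held 204 of these. The authors describe the relaxed lists as peaks and background, so a weaker peak may be background. Coordinates are dm6, counted from 1, and intervals on shares are exact Clopper-Pearson 95% intervals that cover counting error only. Peaks of the same window are not independent, so an interval over peaks is too narrow.

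The sequences shown are the 201 bp around the summits of the 6 IDR peaks in Hr4 and, for comparison, of the intronic IDR peaks in br, Eip75B and ftz-f1. They are the plus strand of the RefSeq Release 6 assembly, with each E-box, CANNTG, in capitals, because the E-box is the site of the basic helix-loop-helix proteins with which emc pairs. The peak in EcR is described by its values alone.
Hr4, chrX:1943702-1943902: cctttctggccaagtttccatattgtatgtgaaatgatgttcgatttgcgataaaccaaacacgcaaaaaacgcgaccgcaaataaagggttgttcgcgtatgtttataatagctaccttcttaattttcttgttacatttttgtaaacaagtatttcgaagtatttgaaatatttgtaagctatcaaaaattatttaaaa
Hr4, chrX:1947671-1947871: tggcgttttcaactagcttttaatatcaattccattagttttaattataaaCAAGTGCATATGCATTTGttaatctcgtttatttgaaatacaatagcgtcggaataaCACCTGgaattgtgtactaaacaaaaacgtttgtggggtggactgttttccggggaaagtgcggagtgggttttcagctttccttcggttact
Hr4, chrX:1951838-1952038: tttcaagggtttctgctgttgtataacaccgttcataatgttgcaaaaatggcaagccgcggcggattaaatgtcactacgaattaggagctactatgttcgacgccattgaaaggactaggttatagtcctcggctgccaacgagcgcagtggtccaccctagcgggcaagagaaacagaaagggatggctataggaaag
Hr4, chrX:1953018-1953218: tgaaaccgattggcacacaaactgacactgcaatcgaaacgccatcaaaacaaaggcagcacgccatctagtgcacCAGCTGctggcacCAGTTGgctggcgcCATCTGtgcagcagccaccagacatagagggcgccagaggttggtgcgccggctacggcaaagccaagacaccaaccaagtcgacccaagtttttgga
Hr4, chrX:1963838-1964038: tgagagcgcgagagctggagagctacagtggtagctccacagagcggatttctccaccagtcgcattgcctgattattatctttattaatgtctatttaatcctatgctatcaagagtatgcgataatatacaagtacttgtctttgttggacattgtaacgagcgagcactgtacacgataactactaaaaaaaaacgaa
Hr4, chrX:1984184-1984384: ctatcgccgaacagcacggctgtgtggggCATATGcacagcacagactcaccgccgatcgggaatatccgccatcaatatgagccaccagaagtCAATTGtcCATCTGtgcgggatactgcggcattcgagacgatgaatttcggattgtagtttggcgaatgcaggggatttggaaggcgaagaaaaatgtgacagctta
br, chrX:1618776-1618976: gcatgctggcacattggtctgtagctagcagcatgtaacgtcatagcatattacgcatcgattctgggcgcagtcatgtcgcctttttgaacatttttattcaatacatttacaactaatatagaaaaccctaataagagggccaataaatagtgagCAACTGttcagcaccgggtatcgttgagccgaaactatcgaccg
Eip75B, chr3L:18009018-18009218: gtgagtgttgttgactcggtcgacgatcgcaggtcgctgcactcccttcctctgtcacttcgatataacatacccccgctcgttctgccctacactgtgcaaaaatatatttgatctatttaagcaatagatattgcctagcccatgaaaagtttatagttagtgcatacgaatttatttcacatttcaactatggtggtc
ftz-f1, chr3L:18786771-18786971: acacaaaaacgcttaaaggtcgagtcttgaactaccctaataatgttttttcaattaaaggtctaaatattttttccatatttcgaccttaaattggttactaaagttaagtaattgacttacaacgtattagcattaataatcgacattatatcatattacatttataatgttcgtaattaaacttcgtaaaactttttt

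All 6 strong peaks at Hr4 lay in its introns. Hr4 (FBgn0264562), a nuclear receptor that represses early genes and helps to time maturation, covers X:1941940-2007956 on the plus strand, 66.0 kb, and has 2 annotated starts that are 50.4 kb apart. The first start, at 1941940, serves 7 transcripts and the second, at 1992300, serves 2. The 6 summits spanned 40.5 kb and all fell between the starts. The first 4 lay within 9.32 kb of each other in 1 intron of 10.4 kb, X:1942894-1953280, which is the first intron of Hr4-RJ and the second of 6 other transcripts. The fifth lay in the next intron, X:1953467-1967895, and the sixth in the intron X:1976621-1986397. The 7 transcripts of the first start share each of these introns, and the 2 of the second start contain none of them.

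From the first start onwards, the peak 1862 bp downstream (X:1943612-1943991) had a pooled signal of 80.9 and rank 1195 of the IDR list. The next, 5831 bp downstream (X:1947581-1947960), had a signal of 131 and rank 469. The peak 9998 bp downstream (X:1951748-1952127) had a signal of 165 and rank 280. Signals therefore were highest in the middle of this intron's group and not nearest to the start. Only 1.18 kb further, at 11178 bp (X:1952928-1953307), a peak with a signal of 97.7 and rank 869 had its summit 162 bp before the end of the intron. The fifth peak, 21998 bp downstream (X:1963748-1964127), again had a signal of 165 and rank 284. The sixth, 42344 bp downstream and 8016 bp upstream of the second start (X:1984094-1984473), had the lowest signal of the 6, 78.3, at rank 1273. The median signal of the 6 was 115, against 94.2 over all IDR peaks, so they were of ordinary strength in the list and stood out by their number.

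**Figure D1:**
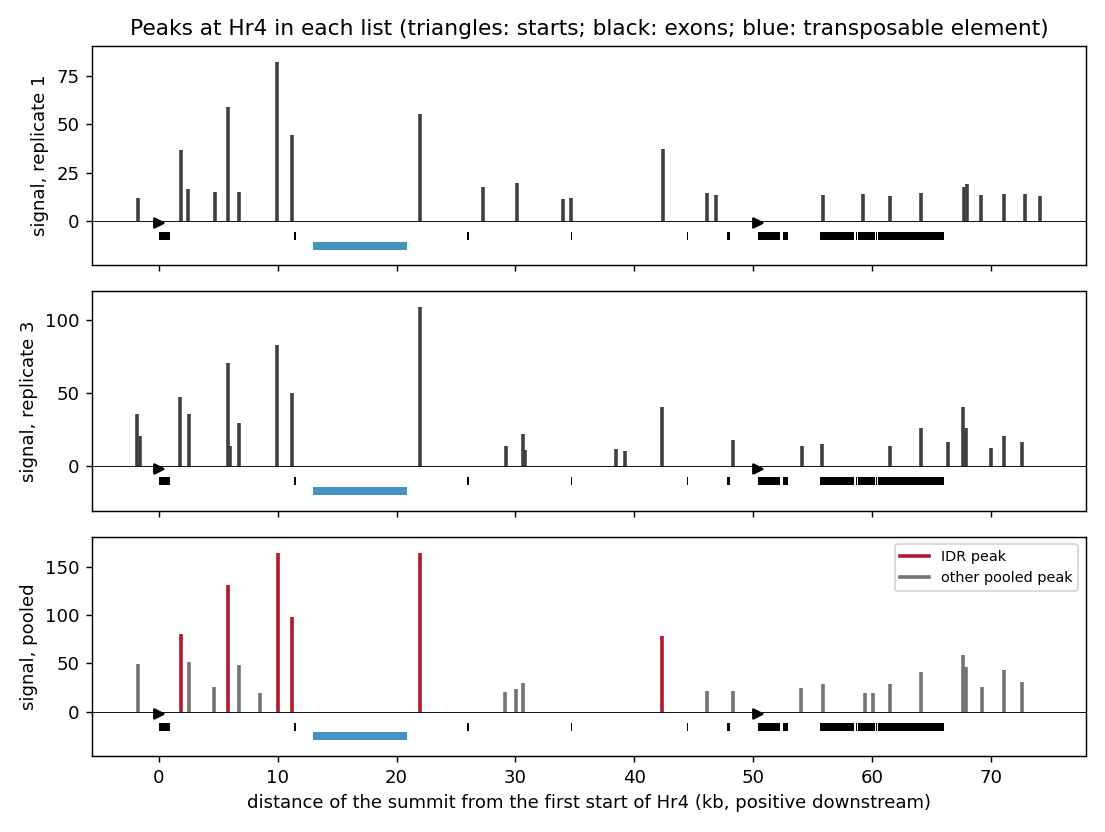
Peaks in the Hr4 window by distance of the summit from the first start in kb (x) and the authors' signal (y), in replicate 1, replicate 3 and the pooled list, with IDR peaks in red, exons in black, starts as triangles and a transposable element in blue. The 6 IDR peaks lie between the 2 starts, and each has a counterpart in both replicates.

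Both replicates held all 6 peaks, and each was among the 1865 top-ranked peaks of each replicate. IDR peaks are the highest pooled signals of these same replicates, so this was partly fixed by the choice of list. In replicate 1 the signals in the order of position were 36.4, 58.8, 82.2, 44.4, 55.5 and 37.4, with ranks from 204 to 1127. In replicate 3 they were 47.6, 70.6, 83.2, 50.1, 109 and 40.7, with ranks from 206 to 1642. The same 3 peaks, those at 5831, 9998 and 21998 bp, were the strongest in both replicates. The order within these 3 differed: the peak at 21998 bp ranked highest of the 6 in replicate 3, while the peak at 9998 bp ranked highest in replicate 1. The signal of the peak at 21998 bp was 1.96 times as high in replicate 3 as in replicate 1, and for the other 5 peaks this ratio was 1.01 to 1.31. Signals of the 2 replicates are scaled by the authors' caller, so ranks compare better than signals.

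Neither start of Hr4 had a peak. No summit of the IDR, pooled or replicate lists lay within 500 bp of 1941940 or of 1992300. The 50.4 kb between the starts held 15 pooled peaks, 6 of them IDR peaks. The 15.7 kb from the second start to the end of the gene held 6 pooled peaks and no IDR peak, with a median signal of 26.5. The 10 kb upstream held 1 pooled peak, at the promoters of CG3857 and CG3587, and the 10 kb downstream held 5. Of the weaker peaks, 3 came within 1.5 times the length of the IDR list in rank. The closest of all 10 windows, with a signal of 59.0 at rank 2093, lay downstream at the promoters of PIG-K and lncRNA:CR45478. The others were an intronic peak 2514 bp from the first start, with 51.1 at rank 2661, and the peak by CG3857, with 49.6 at rank 2787.

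The spacing was uneven, with gaps of 3.97, 4.17, 1.18, 10.8 and 20.3 kb between neighbouring summits. The gap of 10.8 kb holds a Stalker2 transposable element of 7.88 kb, X:1954941-1962823, in which no summit of any of the 4 lists lay. Annotated transposable elements make up 5.93% of the 6 arms and held 0.442% of the pooled summits, and the part of this in the gap at Hr4 was not tested. None of the 13 IDR peaks of the 10 genes overlapped a transposable element, against 0.536% of all IDR peaks.

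The Hr4 window held 69.8 IDR peaks per Mb, the other 9 windows together 11.4 per Mb, and the 6 arms 13.9 per Mb. By window, usp reached 85.1 per Mb with 2 IDR peaks in 23.5 kb, 1 of them at the moody promoter, and the other 8 windows held 0 to 15 per Mb. In pooled peaks the Hr4 window held 314 per Mb, against 309 per Mb in the other 9 together and 220 per Mb on the arms. The X chromosome as a whole held 14.9 IDR peaks and 180 pooled peaks per Mb. Of the IDR summits, 1.93% had 3 or more further IDR summits in the next 10 kb, as the first of the Hr4 group did.

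Set beside other long genes, Hr4 was 1 of 4 with 6 or more intronic IDR summits, 0.395% of the 1013 protein-coding genes of 20 kb or more. The most similar genes by this count were Raf, a kinase of the MAP kinase pathway, with 7 in 48.4 kb, CHES-1-like, a forkhead factor, with 6 in 27.0 kb, and CG1677 with 6 in 125 kb. Then came simj, a subunit of the Mi-2 remodelling complex, and shn, a zinc finger factor of Dpp signalling, with 5 each. Raf, CHES-1-like, CG1677 and Hr4 all lie on the X chromosome. Per 10 kb of body Hr4 had 0.909 intronic IDR summits, against 2.22 at CHES-1-like, 1.45 at Raf and 0.481 at CG1677. At least 1 intronic IDR summit was found in 408 of the 13945 genes, and at least 3 in 22.

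**Figure D2:**
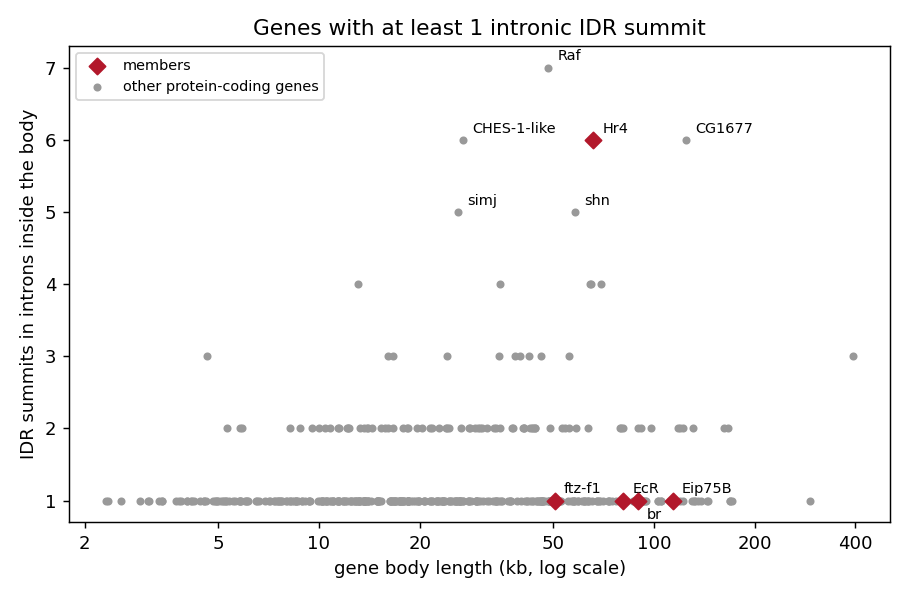
Number of IDR summits in introns (y) against gene body length in kb on a log scale (x) for the genes with at least 1, with members in red. Hr4 has 6, and EcR, br, Eip75B and ftz-f1 have 1 each at similar or greater lengths.

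The receptor genes themselves had 1 IDR peak each in their bodies. EcR, the ecdysone receptor, covers 2R:6087873-6169087 on the minus strand, 81.2 kb, with 6 transcripts and 4 starts. Its IDR peak, 2R:6151065-6151444, had a pooled signal of 120 at rank 559, with 55.1 at rank 494 in replicate 1 and 65.0 at rank 661 in replicate 3. The summit lay 574 bp inside the upstream end of an intron of 56.8 kb that EcR-RA, EcR-RD and EcR-RE share. It was 5874 bp downstream of the start of EcR-RD and EcR-RE, and the nearest of the tRNA genes nested in EcR was 1348 bp away. The next strongest of the 27 pooled peaks of the window had a signal of 42.2 at rank 3857, so this peak stood alone. At the starts themselves the pooled list had only a peak of signal 22.7 at rank 19278, 156 bp from the start of EcR-RD and EcR-RE.

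The gene of the heterodimer partner, usp, is short, 3.51 kb at X:2038798-2042311 on the minus strand. Its near edge lies 30.8 kb beyond the end of Hr4, and its 2 starts lie 33.4 and 34.4 kb beyond it. An IDR peak at X:2041311-2041690, with a signal of 77.2 at rank 1296, had its summit 189 bp upstream of the start of usp-RA. Replicate 1 gave it 37.0 at rank 1104 and replicate 3 gave it 41.9 at rank 1553. A start of CG4313, on the other strand, lies within 500 bp of the same summit, and the peak cannot be given to one gene alone. The window's other IDR peak was the strongest of all 13, with a signal of 221 at rank 148, and it ranked 95 in replicate 1 and 213 in replicate 3. It lay 7982 bp upstream of the first start of usp and 173 bp from a start of moody, a receptor needed for the glial blood-brain barrier, so it belongs to that promoter by position.

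The early genes br and Eip75B differed in where their peaks lay. The gene br, which encodes zinc finger factors that direct the switch to metamorphosis, covers X:1575132-1664869 on the plus strand, 89.7 kb, with 16 transcripts from 9 starts. Its 1 IDR peak, X:1618686-1619065, had a signal of 109 at rank 689, with 42.9 at rank 826 in replicate 1 and 70.0 at rank 573 in replicate 3. The summit was intronic in 14 of the 16 transcripts and 3432 bp upstream of the start of br-RS. It was nearer to a start of Mur2B, 721 bp away, a gene that overlaps br on the other strand. None of the 9 starts of br had a summit of any list within 500 bp. The window held 13 pooled peaks, and after the IDR peak the next had a signal of 31.8.

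Eip75B, an early nuclear receptor that binds heme, covers 3L:17950953-18064696 on the minus strand, 114 kb, with 7 transcripts from 7 starts. Its stronger IDR peak, 3L:17999615-17999994, had its summit 16 bp from the start of Eip75B-RC, with a signal of 131 at rank 470. The 2 replicates placed it alike, with 55.8 at rank 479 in replicate 1 and 74.5 at rank 499 in replicate 3. The other 6 starts had no IDR peak. The pooled list had a peak of signal 25.0 at the start of Eip75B-RA, the starts of Eip75B-RE and Eip75B-RF had peaks of signals 13.2 and 12.2 in replicate 3 alone, and 3 starts had none in any list. The alternative promoters of Eip75B thus differed, with 1 strong peak among 7.

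A weaker IDR peak of Eip75B, 3L:18008928-18009307, lay 9297 bp upstream of the start of Eip75B-RC, in introns of 32.3 to 65.2 kb of 4 longer transcripts. Its signal was 66.7 at rank 1676, with 42.7 at rank 1489 in replicate 3 but 22.5 at rank 3097 in replicate 1. Eip75B also had the most pooled peaks of the 10 windows, 54, in the longest window, 134 kb. Per Mb this was 404, below Eip78C at 417, Hr39 at 424, usp at 425 and Hr78 at 426. Of its 52 weaker peaks 24 were in both replicate lists. As at Hr4, 3 weaker peaks came within 1.5 times the length of the IDR list, whose lowest signal was 62.7, with signals of 56.7, 55.8 and 52.4 at ranks 2231, 2275 and 2545.

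**Figure D3:**
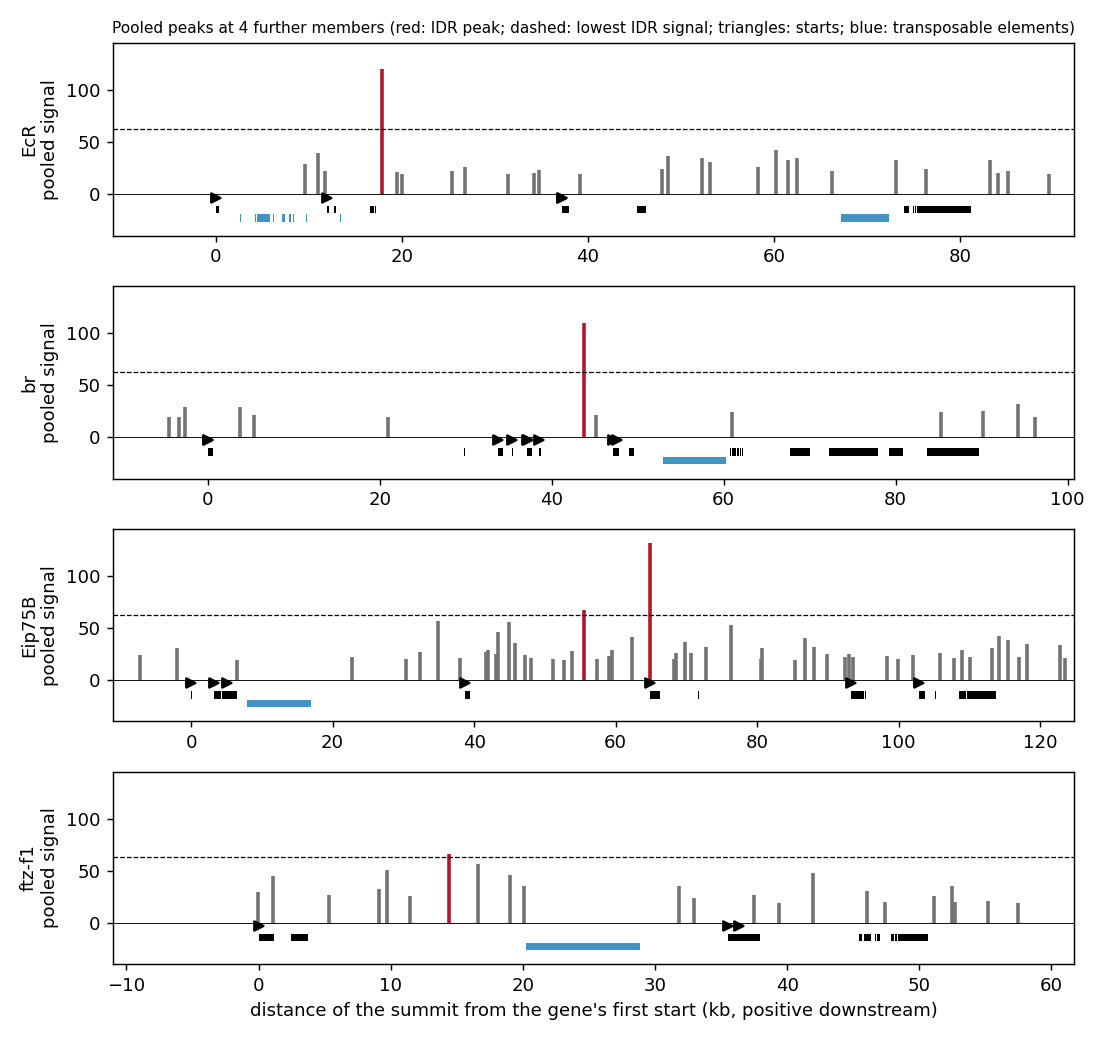
Pooled peaks at EcR, br, Eip75B and ftz-f1 by distance of the summit from the gene's first start in kb (x) and the authors' signal (y), with IDR peaks in red, the lowest IDR signal dashed, starts as triangles, exons in black and transposable elements in blue. Each gene has 1 or 2 peaks over the dashed line, and only that of Eip75B with a signal of 131 is at a start.

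The orphan receptor ftz-f1, a partner of Ftz in the early embryo and a competence factor before pupation, covers 3L:18750607-18801309 on the minus strand, 50.7 kb. Its IDR peak, 3L:18786681-18787060, lay 14438 bp downstream of the start of ftz-f1-RB, in an intron of 33.7 kb found in that transcript alone of 4. The signal was 65.5 at rank 1736, close to the lowest of the list, with 40.9 at rank 1623 in replicate 3 and 22.5 at rank 3124 in replicate 1. The same intron held weaker peaks with signals of 56.5 and 50.6 at ranks 2236 and 2700, both found in both replicates. At the start of ftz-f1-RB the pooled list had a peak of signal 29.2, whose summit lay 69 bp from a start of lncRNA:CR45939. The other 2 starts of ftz-f1 had none.

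The remaining 4 genes had no IDR peak in their windows. Eip78C, an ecdysone-induced receptor of the 78C puff, had 25 pooled peaks in its window, the best an intronic peak at rank 2755. Its signals were 25.5 at rank 2261 in replicate 1 and 23.2 at rank 5003 in replicate 3. Hr39, a relative of ftz-f1, had 18 pooled peaks, the best 129 bp upstream of its start with a signal of 40.5 at rank 4212. A start of CG31626 also lies within 500 bp of that summit. Hr38, the fly relative of the NR4A receptors and a further partner of usp, had 11, the best in the flank with 41.1 at rank 4084. A peak 637 bp upstream of the Hr38 start had 35.7 at rank 5751 and was in both replicates. Another, 10 bp from that start, had 21.2 at rank 22658. Hr78, a receptor that can bind ecdysone response elements, had 10 pooled peaks, with 49.4 at rank 2803 in the flank and 36.2 at rank 5533 near its 3 starts. An IDR peak with a signal of 64.1 at rank 1804 had its summit 131 bp outside the Hr78 window.

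**Figure D4:**
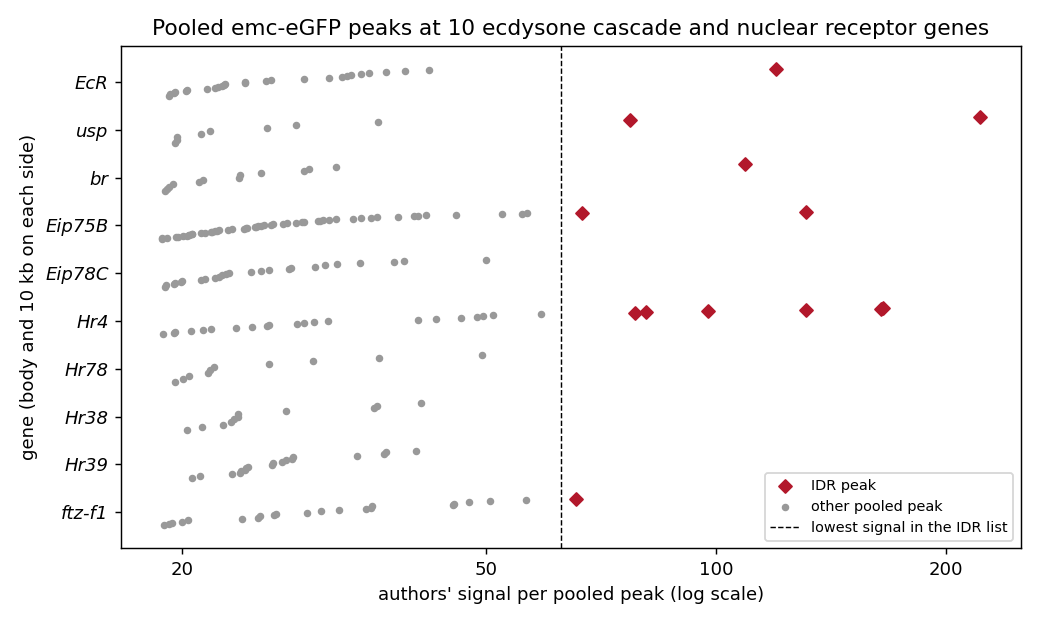
Signal of each pooled peak (x, log scale) in the windows of the 10 genes (y), with IDR peaks as red diamonds and the lowest IDR signal of 62.7 dashed. Hr4 has 6 peaks past the line, 2 of them overlapping at 165, and Eip78C, Hr78, Hr38 and Hr39 have none.

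Of the 10 genes, 6 had an IDR summit in the window, 60% (26.2 to 87.8), against 39.7% of all protein-coding genes, a share inside the interval. The same 6 had one in the gene body, against 6.03% of all genes, and in the body or at a start, against 13.3%. Both of these shares of all genes lie below the interval, but the members are long. Among the 8 members of 20 kb or more, 5 had an IDR summit in the body, 62.5% (24.5 to 91.5), against 26.4% of all genes of that length, again inside the interval. Leaving out Hr4, this was 4 of 7, 57.1% (18.4 to 90.1). An IDR summit lay within 500 bp of an own start in 2 members, usp and Eip75B, 20% (2.52 to 55.6), against 10.6% of all genes. The shares of 6.03% and 13.3% do not allow for length. The members are few and were chosen with earlier results known, so the intervals are wide and a share inside or outside them decides nothing.

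Over the starts, 2 of the 35 annotated starts of the 10 genes had an IDR summit within 500 bp, 13 had a pooled summit, 10 one of replicate 1 and 15 one of replicate 3. Several starts lie close together and share a peak, as the 3 of Hr78 do.

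By position, 10 of the 13 IDR summits were in introns, 76.9% (46.2 to 95), against 28.3% of all IDR summits. The other 3 were in promoters, 23.1% (5.04 to 53.8), against 60.9% of all IDR summits. They include the peak at the moody promoter and the peak shared by usp and CG4313. Hr4, chosen for its strong peaks, supplied 6 of the 10. Both intervals leave out the share of all IDR summits, but these shares are descriptions that follow in part from that choice. Without Hr4, 4 of 7 were in introns, 57.1% (18.4 to 90.1), an interval that holds the share of the whole list. Among the weaker peaks 117 of 204 were in introns, 57.4% (50.3 to 64.2), against 33.3% of all weaker summits. Coding exons held 31 of them, 15.2% (10.6 to 20.9), against 20.5%. The interval for introns leaves out the share of all weaker summits, but it is too narrow, because peaks of the same window are not independent. The Eip75B window alone supplied 52 of the weaker peaks, and 41 of its 54 pooled peaks were intronic. The members have long introns, and the part of intron length in these shares was not tested.

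Of the 217 pooled peaks in the windows 13 were IDR peaks, 5.99% (3.23 to 10), against 6.34% of all pooled peaks. This share joins unequal parts: in the Hr4 window 6 of 27 were IDR peaks, 22.2%, and in the other 9 windows 7 of 190, 3.68%. Hr4 was chosen for its IDR peaks, so this contrast follows from the choice and carries no test. Neighbouring intervals overlapped for 10.6% of these pooled peaks and 14.7% of all, so a pooled count can include the same region more than once. None of the 13 IDR peaks overlapped another.

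The replicates agreed at these peaks about as well as over the whole list. All 13 IDR peaks overlapped a peak of both replicates, against 99.4% of all IDR peaks. The IDR list holds the highest pooled signals of these same replicates, so this overlap was nearly fixed in advance. Among the 1865 top-ranked peaks of each replicate 11 of the 13 were found, 84.6% (54.6 to 98.1), against 70.1%. The 2 that missed were the intronic peaks of Eip75B and ftz-f1, both on their rank in replicate 1. Across the 13 peaks Spearman's rho between the replicate signals was 0.852, and across all 1854 IDR peaks in both lists 0.622, given as descriptions because both replicates used 1 control alignment. Weaker peaks were in both replicates for 88 of 204, 43.1% (36.2 to 50.2), against 39.4%. By gene this was 11 of 18 at Hr39, 12 of 21 at ftz-f1 and 10 of 21 at Hr4, and 2 of 12 at br.

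**Figure D5:**
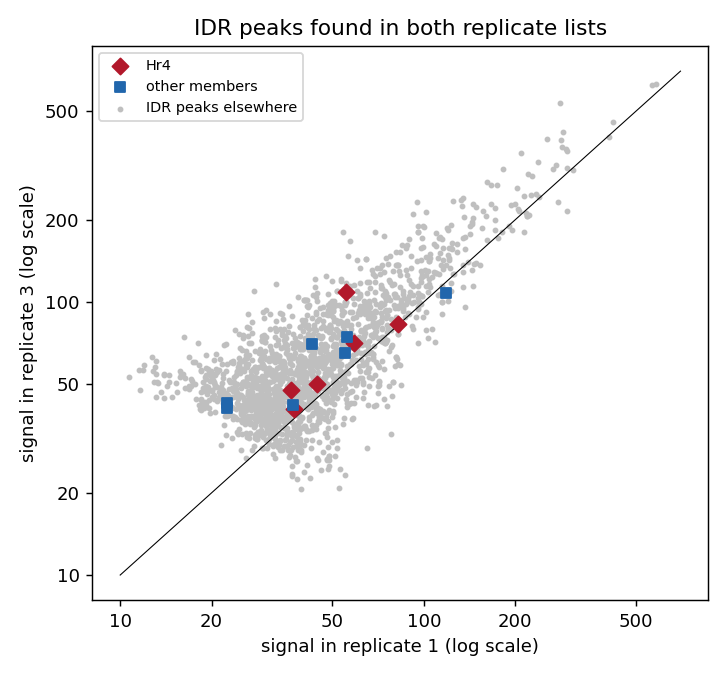
Signal in replicate 1 (x) and replicate 3 (y), both on log scales, for the IDR peaks found in both replicate lists, with Hr4 as red diamonds, other members as blue squares and a line of equal signal. The members lie within the cloud of all IDR peaks, with 2 blue squares at 22.5 in replicate 1.

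In sequence the 6 Hr4 windows were unlike each other. E-boxes were present in 3 of the 6. The window of the peak with signal 131 had 4, of which the first 3 follow each other without a gap. The window at 97.7 had 3 within its central part, CAGCTG first, and that at 78.3 also had 3. The windows of the 2 peaks with a signal of 165 and of that with 80.9 had none, so the 2 strongest of the 6 peaks lacked an E-box within 100 bp of the summit. Among all 13 windows 7 had an E-box, 53.8%, against 63.4% of all IDR windows, 65.9% of intronic IDR windows and 67.3% of weaker windows. GC content of the Hr4 windows was 30.8 to 56.2%, with a mean of 43.8 ± 9.54% (SD over 6 windows), against 37.2 ± 5.61% in the 528 intronic IDR windows.

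The core element of nuclear receptors, AGGTCA, was searched on both strands and was in none of the 13 windows, against 3.86% of IDR and 5.38% of weaker windows. The extended form AAGGTCA, which contains it, was likewise in none, against 1.07% and 1.97%. The GAGA element GAGAG was in 3 of 13, with 3 copies at the Hr4 peak 21998 bp from the first start, against 23.9% of IDR windows. The promoter element DRE was in none, against 5.31% of IDR windows and 0.379% of intronic ones. These counts describe letters in windows of 201 bp and say nothing of which factor was bound.

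The wider pathway was described with 4 gene lists, to be read beside the shares of all genes, 39.7% with an IDR summit in the window and 13.3% with one in the body or at a start. Of 12 other nuclear receptors 6 had an IDR summit in the window, 50%, and 3 had one in the body or at a start. These were Hr96, a sterol and xenobiotic sensor, with a signal of 149, Hr3, an activator of ftz-f1, with 123 and 2 intronic peaks, and ERR, a regulator of embryonic metabolism, with 102. Of 9 genes of ecdysteroid synthesis and turnover 4 had an IDR summit in the window, 44.4%, but none in the body or at a start. The strongest in the windows were near dib, with 162, and spo, with 134, both P450 enzymes of hormone synthesis.

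Of 19 other ecdysone response genes 11 had an IDR summit in the window, 57.9%, and 5 in the body or at a start. By signal in the body or at a start, the strongest were Eip63F-1 with 176 and the kinase gene Eip63E with 136. ImpL2, a secreted binder of insulin-like peptides, followed with 113, and Ldh, lactate dehydrogenase, with 95.4. Eip74EF, an early gene of the ETS family, had an IDR peak only outside its body and starts, with 73.8. Of 16 genes of cofactors and juvenile hormone partners 10 had one in the window, 62.5%, and 7 in the body or at a start. By the same measure, the strongest were Mi-2, a chromatin remodeller, with 223, and the chaperone Hsp83 with 194. Next came Smr, a corepressor of the ecdysone receptor, with 182 and 2 intronic peaks, and the remodeller brm with 126. Signals elsewhere in a window could be higher, as for Smr with 701. No gene of these lists had more than 2 intronic IDR summits, against 6 at Hr4, which was chosen by its count. Over all 13945 protein-coding genes, 22 had at least 3.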

How the data were processed

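The files were peak lists in narrowPeak format on dm6 from 2 biological replicates, which the labels call biological without describing separate collections, so their spread may be partly technical. The authors deposited a signal value per peak, on a scale set by their caller, and a −log10 q-value per peak, which here only broke ties in ranking. The deposited listing files state that 1 control alignment was shared by the replicate lists, the pooled list and the IDR-thresholded list. Which aligner, caller and IDR cutoff the authors applied is not given in the sources. Lists on dm3 and the control were not used here.

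Genes came from Ensembl release 115 and sequence from the RefSeq Release 6 assembly. Of 15231 forward coding transcripts 99.5% began with ATG at the annotated position, and 10 of 10 members had the same coordinates in RefSeq and Ensembl. Summits were assigned to a gene body and 10 kb on each side, and classed as promoter (within 500 bp of a start), then as exon (5' UTR, coding, 3' UTR or non-coding), intron or intergenic, in that order. Peaks overlapped from 1 bp. The members and lists were chosen with earlier results of these data known. No test was run, since there was 1 group and the members were chosen.

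Named were all members, genes with a start within 500 bp of a member IDR summit and the genes with the most intronic IDR summits. Up to 4 genes of each list were named by highest IDR signal in the body or at a start, or in the window where the list had none there. CG3857, CG3587, PIG-K, lncRNA:CR45478, CG31626, lncRNA:CR45939, Mur2B and Eip74EF were named after their values were seen. In the lists 3 symbols of synthesis genes and 3 of response genes were not matched or repeated a gene. Tables were handled in pandas 2.3.3 and numpy 2.4.6 under Python 3.11.15, intervals came from scipy 1.17.1 and plots from matplotlib 3.10.9. The classing and overlap steps were tested on simulated data.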

Additional observations from a re-analysis of the deposited data

How the results depend on the processing

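Of 37 values recomputed under other choices, 35 stayed within 1.5 times the reported count or inside the interval of the reported share. Some of these could not move, because all 13 IDR peaks were in both replicates and so was any subset of them. Using the 932 IDR peaks of higher signal left 8 IDR peaks in the member windows, against 13, and 1 member with an IDR summit at an own start, against 2. Hr4 then had 4 peaks, against 6, which is at the limit of 1.5 times and was counted as staying within it. When the IDR list was replaced by as many of the highest peaks from a single replicate, the windows held 11 to 15 peaks, 5 to 6 members had one, Hr4 had 6 to 7, introns held 72.7% to 73.3%, and 2 members had a summit at an own start. Flanks of 0 or 5 kb gave 12 peaks in the windows and 6 at Hr4. Counting any overlap of an interval added the peak at the edge of the Hr78 window, for 14 peaks and 7 members. A stricter overlap rule or a summit within 150 bp left all 13 IDR peaks in both replicates. No paired analysis was possible because there is 1 group.

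Depth is not in the files, and a start without a peak is not shown to lack emc. With 2 replicates and 1 control, 10 genes and 13 peaks, shares carry wide intervals, and embryos of all stages and tissues were mixed.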
